A study of Mus musculus with 12 samples.

Results

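The genes described here encode secreted neuropeptides and granins of the hippocampus. Of 10 named genes (Npy, Sst, Penk, Pdyn, Tac1, Vgf, Scg2, Crh, Cck and Chga), those with at least 1 probe set annotated to that symbol alone were kept. This gave 8 genes and 12 probe sets out of 8251 genes and 12422 probe sets tested. Penk had 3 probe sets, Pdyn and Chga had 2 each, and the other kept genes had 1. Vgf and Crh had 0 such probe sets and were not analysed here.

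Neuropeptides are cut from larger precursor proteins inside dense core vesicles and are released when a neuron fires strongly. They act on receptors of the G protein-coupled type. Granins such as secretogranin II (Scg2) and chromogranin A (Chga) are acidic proteins that help to form and load these vesicles and are themselves cut into peptides. In the hippocampus, somatostatin (Sst), neuropeptide Y (Npy) and cholecystokinin (Cck) are made chiefly by interneurons, with Cck also in pyramidal cells. The opioid precursors proenkephalin (Penk) and prodynorphin (Pdyn) are found in granule cells and their mossy fibres. Sst was among the first genes in which the cAMP response element, the site bound by CREB and its relatives, was defined.

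Hippocampal RNA was taken from control mice and from mutants lacking CREB and CREM, according to the series title. The labels give neither the alleles nor a driver line, and they name the other genotype only as control. All mice were littermates of both sexes, 5 to 6 weeks old, single-caged and handled for 5 days. They received kainate, a glutamate receptor agonist that evokes seizures, at 20 mg/kg intraperitoneally, or saline, and tissue was taken 1 hour after injection. The 4 groups (control saline, control kainate, mutant saline and mutant kainate) had 3 arrays each, and every array held RNA pooled from 3 animals, so a group rests on 9 animals and n counts pools.

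The values are log2 levels, so a difference of 1 is a doubling. Array correlations across probe sets were 0.973 to 0.998. The replicate 1 arrays of the 4 groups deviated together from replicates 2 and 3, so values within these sets of arrays are given beside the member results where they differ most. Control kainate replicate 3 had a compressed spread (interquartile range 3.74, where the other 11 arrays had 4.40 to 4.61). Fos, the activity marker, rose in controls by 4.77 (SE 0.13, limma adjusted p = 9.48e-09) and in mutants by 5.92 (SE 0.13, limma adjusted p = 3.04e-09). Mutant minus control, averaged over treatments, the 3 Creb1 probe sets differed by -0.09 to -0.12. Under saline they differed by -0.02 to -0.03 and under kainate by -0.14 to -0.22. Control kainate replicate 3 was the highest array in all 3. These probe sets were near the low end of the array, with means of 2.92 to 3.91. The brighter Crem probe set differed by -0.29 (SE 0.07, limma adjusted p = 0.141) and the dimmer one by -0.25 (SE 0.07, limma adjusted p = 0.286). The brighter Crem probe set differed by -0.08 under saline and by -0.51 under kainate (SE 0.10 for both, limma adjusted p = 0.0889 under kainate). Whether these probes cover the deleted sequence is not given, so they do not check the genotype. In bulk tissue, fewer cells of a type and less RNA per cell cannot be told apart.

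Promoters bear on this gene set because both missing factors act through the cAMP response element, whose full form is TGACGTCA and whose core is TGACG, or CGTCA on the other strand. The RefSeq table for GRCm38.p6 held 8 promoters of 7 of these genes, each spanning 250 bases before and 50 bases after the annotated start. Penk was the gene without one, so its promoter was not searched. The full palindrome, read the same on both strands, was found in Scg2, 68 bases before the start, and in Sst, 48 bases before it. It was present in 588 of 32851 promoters of that length (1.79%). Tac1, the precursor of substance P, held the core without the full element at 197 and 43 bases before the start, Cck at 47 and Chga at 44. The core lies within the full element, and 20.8% of all promoters held it. Npy and Pdyn held neither within this window. The Scg2 and Sst sequences are shown for the full element and the Tac1, Cck and Chga sequences for the core nearest the start. Each is 100 bases, 5′ to 3′ along the gene, with the matched letters in capitals. Scg2 is chr1:79440027-79440126 (minus strand), Sst chr16:23890845-23890944 (minus), Tac1 chr6:7554961-7555060 (plus), Cck chr9:121495695-121495794 (minus) and Chga chr12:102554841-102554940 (plus).
Scg2: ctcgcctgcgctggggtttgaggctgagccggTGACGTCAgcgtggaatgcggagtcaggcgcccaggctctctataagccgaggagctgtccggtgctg
Sst: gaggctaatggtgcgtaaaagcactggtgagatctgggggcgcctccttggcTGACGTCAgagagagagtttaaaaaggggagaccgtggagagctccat
Tac1: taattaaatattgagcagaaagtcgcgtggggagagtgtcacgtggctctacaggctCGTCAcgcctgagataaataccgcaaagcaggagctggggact
Cck: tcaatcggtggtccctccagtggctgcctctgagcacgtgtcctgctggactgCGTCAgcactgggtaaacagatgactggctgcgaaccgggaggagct
Chga: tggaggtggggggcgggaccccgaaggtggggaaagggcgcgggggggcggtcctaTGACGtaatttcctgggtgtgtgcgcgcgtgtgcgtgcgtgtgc

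A match describes letters in a window and does not show that a factor bound there. Scg2 and Sst, which share the full element near the start, had unlike values under kainate, as given for each gene. The plot of elements by distance places these matches along the 7 genes.

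**Figure D1:**
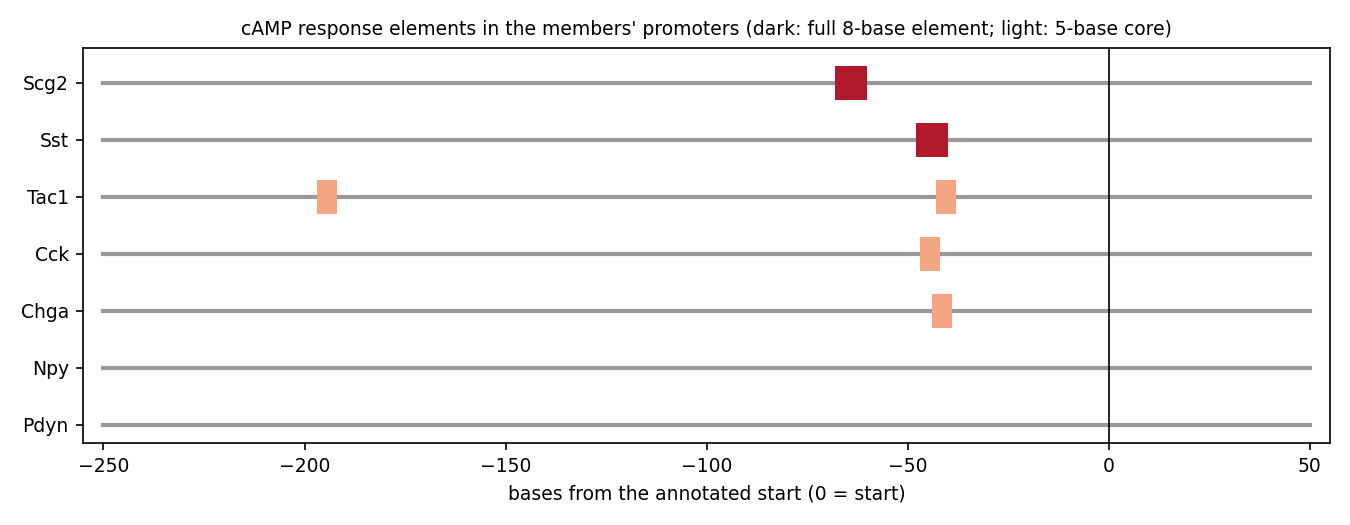
Positions of cAMP response elements in the promoters of 7 genes, in bases from the annotated start (0 is the start). Dark bars mark the full element (Scg2 and Sst), light bars the core (Tac1, Cck and Chga), and Npy and Pdyn have none in the window. Penk is not shown because its promoter was not available.

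Scg2, which encodes the granin cut to secretoneurin, was the 1 member to pass the test. In control saline arrays it measured 10.77, 10.83 and 10.65 in replicates 1 to 3, and in control kainate arrays 11.37, 11.49 and 11.09. In mutant saline arrays it measured 10.67, 10.64 and 10.64, and in mutant kainate arrays 10.99, 10.98 and 11.03. Every kainate array lay above every saline array of the same genotype, the control kainate arrays lay above the mutant kainate arrays, and the saline groups overlapped.

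Scg2 rose with kainate in controls by 0.57 (SE 0.10, limma adjusted p = 0.0475), a 1.48-fold rise. In mutants the difference was 0.35 (SE 0.10, 1.27-fold) and did not pass (limma adjusted p = 0.405). Averaged over genotypes it rose by 0.46 (SE 0.07, 95% interval 0.30 to 0.61, limma adjusted p = 0.0134). The test of the difference between genotypes gave -0.22 (SE 0.14, 95% interval -0.53 to 0.09, limma adjusted p = 0.939), so a smaller response in mutants was not shown. Mutants minus controls were -0.10 under saline and -0.32 under kainate (SE 0.10 for both), with limma adjusted p values of 1.00 and 0.528.

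The call in controls rested on the choice of arrays. With replicate 1 as a batch term it was lost (limma adjusted p = 0.0559), while the averaged call held (limma adjusted p = 0.0111). It was also lost when any 1 of the 12 arrays was left out except control kainate replicate 3, the highest p (limma adjusted p = 0.300) coming without control saline replicate 3. Without control kainate replicate 3 the difference was 0.68 (limma adjusted p = 0.000803). Without that array Scg2 also passed for kainate in mutants (0.35, limma adjusted p = 0.0397), for genotype under kainate (-0.43, limma adjusted p = 0.0322) and for genotype averaged over treatments (-0.26, limma adjusted p = 0.0260). With each array centred on its median both calls were lost (limma adjusted p = 0.384 in controls and 0.0747 averaged). With only the 6 control arrays in the fit the call in controls was lost as well (limma adjusted p = 0.868). The averaged call was lost without control saline replicate 3 or mutant saline replicate 2 or 3 (limma adjusted p = 0.0527, 0.0537 and 0.0518). The size moved little between sets of arrays, at 0.61 in controls and 0.32 in mutants within replicate 1, and 0.55 and 0.36 within replicates 2 and 3.

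Chga, the granin chromogranin A, had a bright and a dimmer probe set. The brighter one measured 7.33, 7.47 and 7.21 in control saline and 7.65, 6.71 and 6.46 in control kainate arrays. In mutants it measured 7.67, 7.88 and 7.90 under saline and 8.18, 7.07 and 6.97 under kainate. In both genotypes the replicate 1 kainate array lay above all 3 saline arrays while the other kainate arrays lay below them, so the groups overlapped.

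Averaged over genotypes, the Chga kainate difference was -0.40 (SE 0.24, limma adjusted p = 0.640). Within replicate 1 it was 0.41, with 1 array a group and no test. Within replicates 2 and 3 it was -0.81 (SE 0.10, limma adjusted p = 0.00742). The sign thus differed between the sets of arrays, and whether the cause is technical was not tested. All 3 mutant saline arrays were above all control saline arrays (0.48, SE 0.34, limma adjusted p = 1.00). The dimmer Chga probe set stayed between 5.09 and 5.42 on all 12 arrays, with a kainate difference of 0.07 (SE 0.06, limma adjusted p = 0.899), so it did not show this split.

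**Figure D2:**
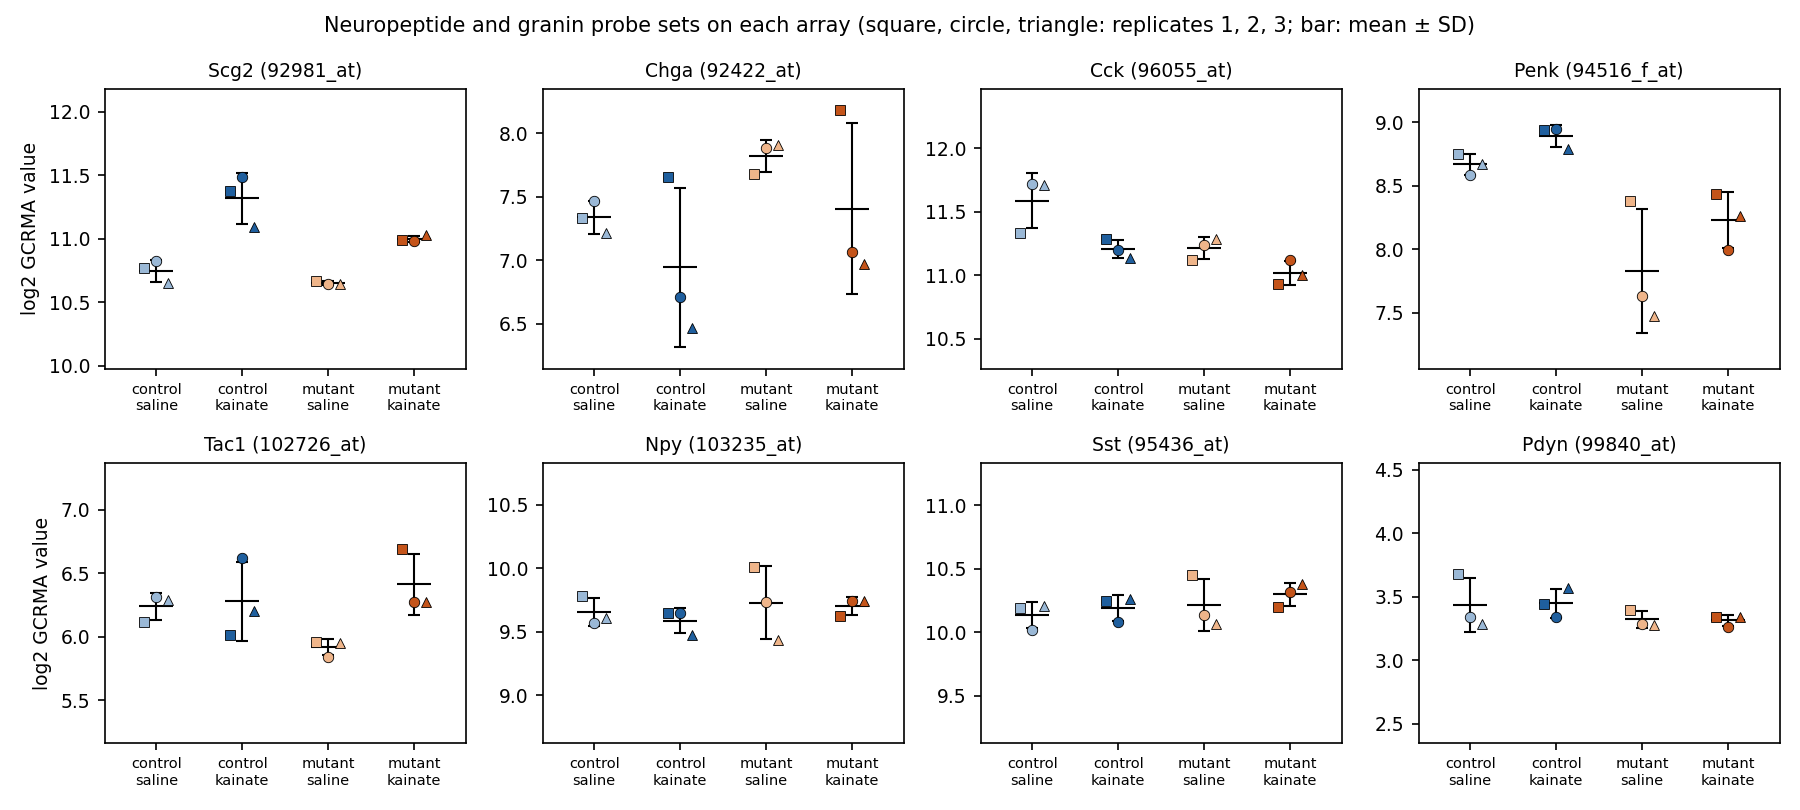
Log2 level on every array of the brightest probe set of each gene, by group (square, circle and triangle are replicates 1, 2 and 3, and the bar is the mean ± SD of 3 arrays). All panels span the same log2 range, and the Scg2 kainate arrays lie above the saline arrays while Npy and Sst overlap across groups.

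Cck, the precursor of cholecystokinin, had 11.33, 11.71 and 11.71 in control saline arrays and 11.28, 11.19 and 11.14 in control kainate arrays. Mutant saline arrays had 11.12, 11.24 and 11.28, and mutant kainate arrays 10.93, 11.12 and 11.00. The control saline group was above each of the other groups with no overlap, and mutant kainate was below both saline groups. In mutants that separation was only 11.1189 (mutant kainate replicate 2) against 11.1201 (mutant saline replicate 1).

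The Cck kainate difference was -0.38 in controls (SE 0.11, limma adjusted p = 0.432) and -0.20 in mutants (SE 0.11, limma adjusted p = 0.968), and -0.29 averaged (SE 0.08, limma adjusted p = 0.142). The genotype difference was -0.37 under saline (SE 0.11, limma adjusted p = 0.835), -0.19 under kainate (SE 0.11, limma adjusted p = 0.530) and -0.28 averaged (SE 0.08, limma adjusted p = 0.255). None of these passed. Within replicate 1 the control kainate difference was -0.05, against -0.55 within replicates 2 and 3 (limma adjusted p = 0.0580). Averaged over genotypes the corresponding values were -0.12 and -0.37, and the latter passed among the arrays of replicates 2 and 3 alone (limma adjusted p = 0.0283).

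Penk, the precursor of the enkephalins, had the widest genotype difference among the genes, but in 1 of its 3 probe sets. The brightest, of the type whose probes are shared by a family of sequences, measured 8.75, 8.58 and 8.67 in control saline and 8.94, 8.94 and 8.79 in control kainate arrays. In mutants it measured 8.38, 7.63 and 7.47 under saline and 8.44, 8.0 and 8.26 under kainate. All 6 mutant arrays lay below all 6 control arrays, and the mutant saline group spread most (SD 0.48, n = 3), with replicate 1 the highest.

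Mutant minus control, this Penk probe set differed by -0.84 under saline (SE 0.20, limma adjusted p = 0.413), a 1.79-fold lower value, and by -0.66 under kainate (SE 0.20, limma adjusted p = 0.521). Averaged over treatments the difference was -0.75 (SE 0.14, 95% interval -1.07 to -0.43), which missed the threshold (limma adjusted p = 0.0532). It passed with replicate 1 as a batch term (limma adjusted p = 0.00817) and without mutant saline replicate 1 (-0.89, limma adjusted p = 0.00224), and the saline comparison then passed too (-1.12, limma adjusted p = 0.0193). The averaged difference was -0.44 within replicate 1 and -0.91 within replicates 2 and 3 (limma adjusted p = 0.0194).

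The other Penk probe sets gave smaller differences. The one at 6.18 to 6.64 differed by -0.12 (SE 0.08, limma adjusted p = 0.630), and the one at 3.02 to 3.63, near the low end of the array, by -0.12 (SE 0.10, limma adjusted p = 0.630). Both are of the type built under relaxed rules for choosing probes. Averaged over the 3 probe sets, the difference was -0.33 (limma adjusted p = 0.134). The probe sets thus gave averaged values of one sign and unequal size, and which transcripts each detects was not tested. For the dimmest, the genotype difference was -0.03 under saline and -0.21 under kainate (SE 0.14 for both). Its highest value, 3.63, was that of control kainate replicate 3, the array with the compressed spread, so its sign carries little weight. Kainate minus saline in the brightest was 0.22 in controls and 0.40 in mutants (SE 0.20 for both), and 0.31 averaged (SE 0.14, limma adjusted p = 0.432). The averaged value was 0.12 within replicate 1 and 0.41 within replicates 2 and 3, and it passed without mutant saline replicate 1 (0.45, limma adjusted p = 0.0432). In the second probe set kainate minus saline had the other sign, at -0.10 in controls, -0.16 in mutants and -0.13 averaged (SE 0.08, limma adjusted p = 0.638), and in the dimmest it was 0.05 averaged (SE 0.10).

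**Figure D3:**
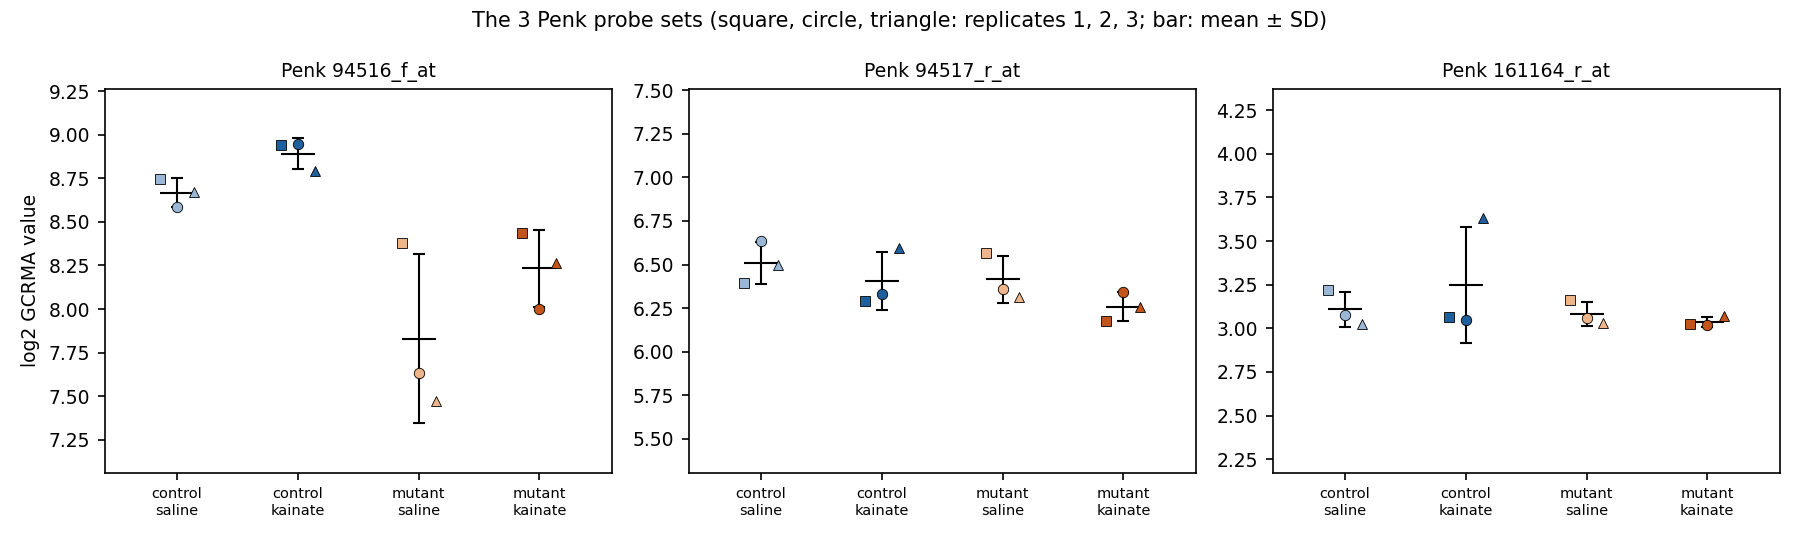
Log2 level of the 3 Penk probe sets on every array (square, circle and triangle are replicates 1, 2 and 3, and the bar is the mean ± SD of 3 arrays). All 6 mutant arrays lie below the 6 control arrays in the left panel, while groups overlap in the other panels.

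Because Penk, Tac1 and Pdyn are abundant in the striatum, its markers were read beside them. Of 11 striatal markers 4 had a probe set, and all 4 averaged below a log2 level of 4, taken here as dim. Their mean ranged from 3.06 to 3.23 in control saline, 3.11 to 3.52 in control kainate, 3.11 to 3.17 in mutant saline and 3.06 to 3.11 in mutant kainate arrays. None of them passed (0 of 4 in either averaged comparison). Probe sets this dim could hardly show a change, so the part of striatal tissue was not tested.

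Pdyn, the dynorphin precursor, was near the low end of the array in both probe sets, at 3.27 to 3.68 and 3.18 to 3.76. In the probe set of the lower mean, the control kainate arrays (3.40, 3.76 and 3.46) lay above the control saline arrays (3.39, 3.27 and 3.24). That difference was 0.25 (SE 0.10, limma adjusted p = 0.617), and the corresponding value in mutants was 0.02 (SE 0.10, limma adjusted p = 1.00). In controls it was 0.02 within replicate 1 and 0.36 within replicates 2 and 3 (limma adjusted p = 0.225). The brighter probe set differed by 0.01 in controls and -0.01 in mutants (SE 0.11 for both). Changes in Pdyn RNA were not detectable at these signals.

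Tac1 was lowest in mutant saline arrays. It measured 6.12, 6.32 and 6.29 in control saline, 6.02, 6.62 and 6.20 in control kainate, 5.96, 5.84 and 5.95 in mutant saline and 6.69, 6.28 and 6.27 in mutant kainate arrays. The mutant saline arrays were the lowest group and did not overlap control saline or mutant kainate arrays, while control saline and control kainate arrays overlapped. Under saline the genotype difference was -0.32 (SE 0.16, 95% interval -0.67 to 0.03) and did not pass. Neither averaged kainate (0.27, SE 0.11, limma adjusted p = 0.363) nor averaged genotype (-0.09, SE 0.11, limma adjusted p = 0.650) passed.

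The Tac1 kainate difference was 0.04 in controls (SE 0.16) and 0.49 in mutants (SE 0.16, limma adjusted p = 0.505). The test of the difference between them gave 0.45 (SE 0.22, 95% interval -0.04 to 0.95, limma adjusted p = 0.939), so an unequal response was not shown. That value was 0.83 within replicate 1 and 0.27 within replicates 2 and 3, and the kainate difference in mutants was 0.73 and 0.38. Under kainate the genotype difference was 0.67 within replicate 1 and -0.14 within replicates 2 and 3, and no direction is given for it.

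Npy and Sst, the interneuron peptides, did not pass in any of the 7 comparisons. Npy measured 9.78, 9.57 and 9.61 in control saline, 9.65, 9.65 and 9.48 in control kainate, 10.01, 9.74 and 9.44 in mutant saline and 9.63, 9.75 and 9.74 in mutant kainate arrays. Sst measured 10.19, 10.02 and 10.20, then 10.24, 10.08 and 10.26, then 10.45, 10.14 and 10.07, then 10.20, 10.32 and 10.38 in the same order of groups. Groups overlapped for both genes in every comparison.

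Averaged over genotypes, the kainate difference was -0.05 for Npy (SE 0.09, 95% interval -0.25 to 0.16) and 0.07 for Sst (SE 0.08, 95% interval -0.11 to 0.24). The averaged genotype difference was 0.09 for each, with limma adjusted p = 0.630 for both. The averaged kainate difference changed sign between the sets of arrays for both genes, at -0.26 within replicate 1 and 0.06 within replicates 2 and 3 for Npy, and at -0.10 and 0.15 for Sst. In mutants alone the Sst values were -0.25 and 0.25, so no direction is given. Of 15 interneuron markers 14 were measured and 0 passed in either averaged comparison. Their median averaged kainate difference was 0.04. Slc32a1 differed by 0.20 with averaged kainate (SE 0.05, limma adjusted p = 0.142) and Dlx2 by 1.03 (SE 0.36, limma adjusted p = 0.267). Gad1, which makes GABA, differed by 0.03 with kainate (SE 0.06) and 0.01 with genotype. Gad2, which encodes a related GABA-making enzyme, differed by -0.03 with kainate and by -0.18 with genotype (SE 0.275 for both). The array mean of the 14 interneuron markers ranged from 6.29 to 6.37 in control saline, 6.33 to 6.52 in control kainate, 6.33 to 6.40 in mutant saline and 6.44 to 6.52 in mutant kainate arrays.

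**Figure D4:**
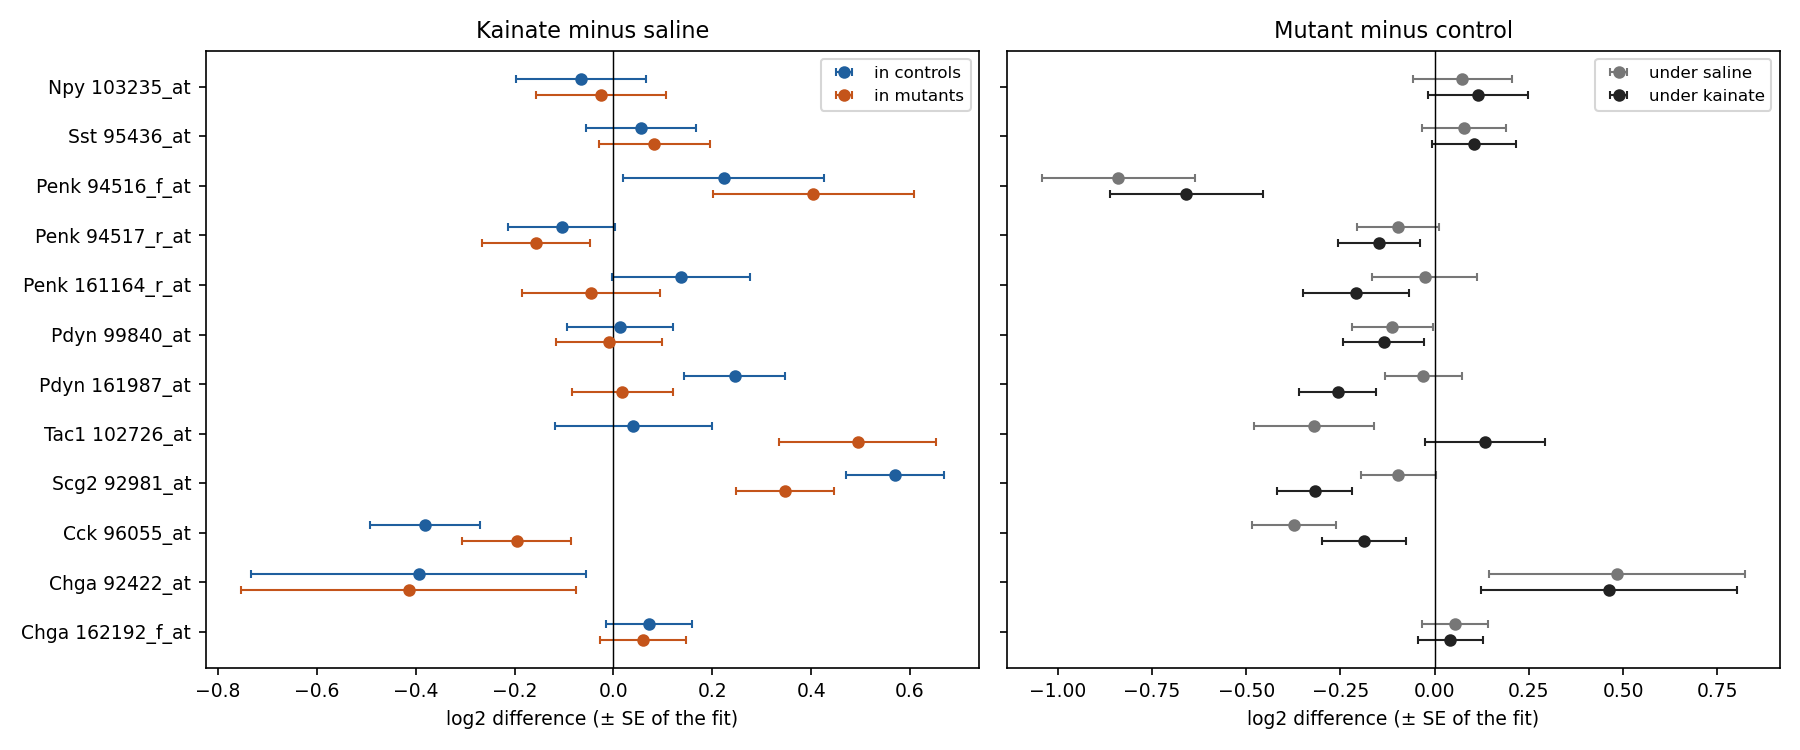
Log2 differences of all 12 probe sets with the SE of the fit, kainate minus saline in each genotype (left) and mutant minus control under each treatment (right). Scg2 in controls (0.57) is the 1 point on the left that passed, and the Penk probe set at -0.84 and -0.66 on the right did not pass.

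Counted together, 1 of 12 member probe sets passed for kainate in controls, where 0.33% of all probe sets did, and 0 of 12 in mutants, where 0.298% did. Averaged over genotypes 1 of 12 passed against 0.942%. For genotype 0 of 12 passed under saline (0.137% of all), under kainate (0.354%) and averaged (0.612%). For the interaction 0 of 12 passed and 0% of all probe sets did. A single gene, Scg2, accounts for every call at the adjusted threshold. At an unadjusted p under 0.05 limma gave 0 members for the interaction and 107 of all probe sets (0.861%). For kainate it gave 3 of 12 in controls (7.37% of all), 2 in mutants (6.28%) and 3 averaged (11.9%). For genotype it gave 2 under saline (2.57%), 3 under kainate (4.96%) and 3 averaged (5.98%).

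Groups that did not overlap were more frequent than calls. For kainate in controls 4 of 12 probe sets separated (Scg2, a Penk and a Pdyn probe set higher, Cck lower), against 7.04% of all probe sets, and in mutants 3 of 12 (Scg2 and Tac1 higher, Cck lower), against 12.4%. Under saline 4 of 12 separated by genotype (a Chga probe set higher in mutants, and a Penk probe set, Tac1 and Cck lower), against 7.08%. Under kainate 5 of 12 separated, all lower in mutants (a Penk, both Pdyn, Scg2 and Cck), against 8.99%. Both Pdyn probe sets were near the low end of the array. The brighter one separated only by 3.3393 (control kainate replicate 2) against 3.3392 (mutant kainate replicate 1). For kainate in mutants, Cck separated only by 11.1189 (mutant kainate replicate 2) against 11.1201 (mutant saline replicate 1). The comparisons share arrays, so these counts are not independent of each other. Over the brightest probe set of each gene the median difference was 0.04 for averaged kainate and -0.11 for averaged genotype, beside 0.03 and -0.06 over all probe sets.

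**Figure D5:**
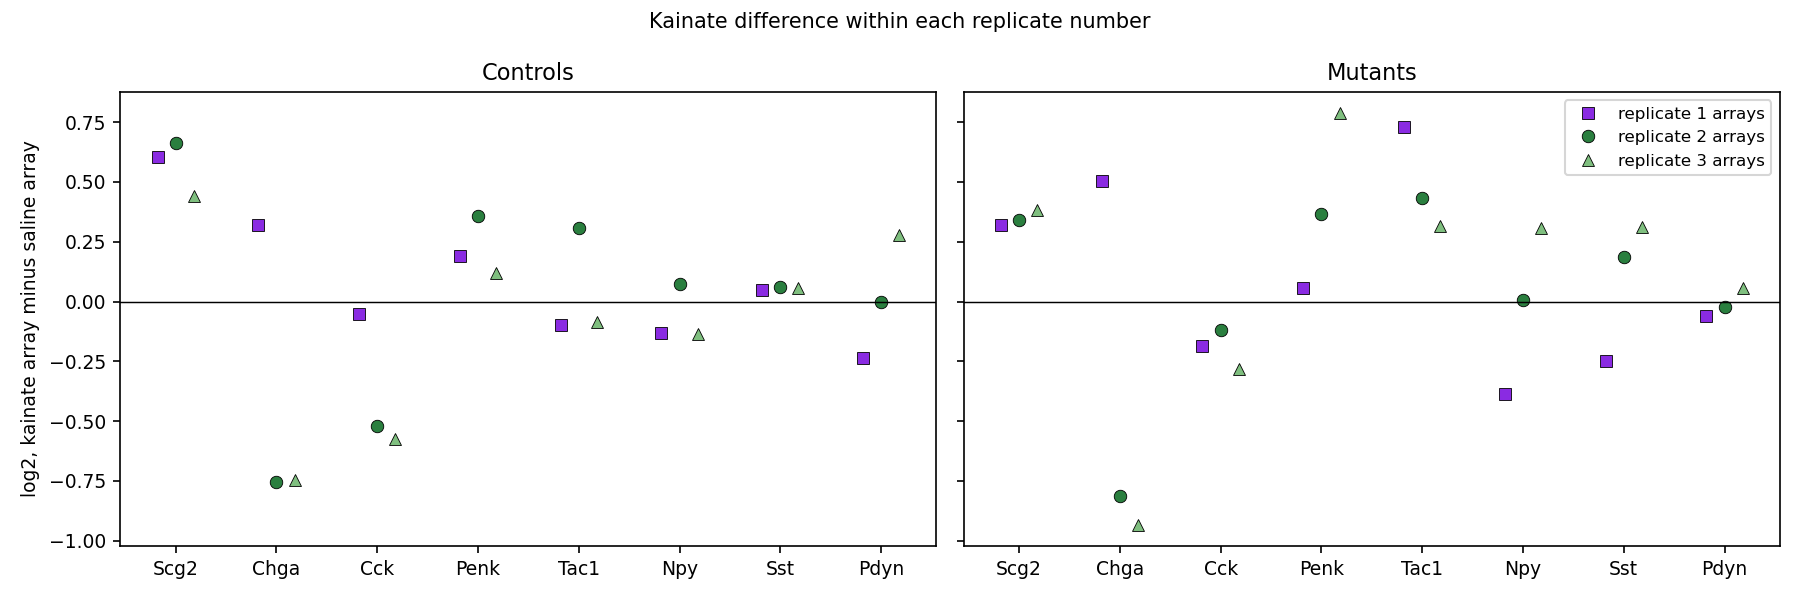
Kainate array minus saline array of the same replicate number (log2), for the brightest probe set of each gene in controls (left) and mutants (right). Chga is above 0 in replicate 1 and below 0 in replicates 2 and 3 in both genotypes, while Scg2 is above 0 in all 3.

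The rest of the peptide pathway gave no calls. Of 90 further genes in 4 lists 73 were measured, and 0 passed in any of the 7 comparisons. Other neuropeptides (22 of 31 measured) were mostly near the low end, with 17 below a log2 level of 4. The smallest p values were those of Tac2, the neurokinin B precursor (kainate 0.26, SE 0.06, limma adjusted p = 0.0772), Adm, which encodes adrenomedullin (0.20, SE 0.06, limma adjusted p = 0.208), and Vip (-0.41, SE 0.20, limma adjusted p = 0.491).

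Granins and enzymes of prohormone processing (14 of 19 measured) were brighter, with 1 below a level of 4. Cpe, the carboxypeptidase that trims cut peptides, differed by 0.26 with averaged kainate (SE 0.10, limma adjusted p = 0.291). The vesicle proteins Ptprn and Ptprn2 differed by -0.35 (SE 0.10, limma adjusted p = 0.170) and -0.93 (SE 0.31, limma adjusted p = 0.231). The median of this list was 0.05, beside 0.03 over all probe sets, and its values ran from -0.93 to 0.26. At an unadjusted p under 0.05 limma gave 6 of these 14 genes for averaged kainate, against 11.9% of all probe sets. It gave 2 of 22 other neuropeptides, 3 of 27 receptors and binding proteins and 1 of 10 peptidases.

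Receptors and binding proteins (27 of 29 measured) had 20 members below a level of 4. Npy1r, a receptor of neuropeptide Y, differed by -0.21 with kainate (SE 0.07, limma adjusted p = 0.267), Oprl1, the nociceptin receptor, by -1.09 (SE 0.33, limma adjusted p = 0.188) and C3ar1, a complement receptor, by 0.32 (SE 0.11, limma adjusted p = 0.228). Of the peptidases that degrade neuropeptides (10 of 11 measured), Ece1 differed by -0.31 (SE 0.08, limma adjusted p = 0.128) and Nln, neurolysin, by 0.23 (SE 0.18, limma adjusted p = 0.855). For genotype, Prep, a prolyl endopeptidase, differed by -0.14 (SE 0.10, limma adjusted p = 0.630).

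Some cell markers passed for genotype in the fit of group means, where no Penk or Cck probe set did. The microglial markers averaged 6.73 to 6.78 in control saline, 6.87 to 7.03 in control kainate, 7.70 to 7.93 in mutant saline and 7.94 to 8.26 in mutant kainate arrays. Averaged over treatments, 9 of 11 passed as higher in mutants. Cd52 had the largest averaged difference among them (2.32, SE 0.19, limma adjusted p = 0.000385), and Tyrobp, Mpeg1, C1qa, C1qb, C1qc, Ctss, Laptm5 and Csf1r lay between 0.70 and 1.76. Gfap, of reactive astrocytes, was higher in mutants by 1.62 (SE 0.21, limma adjusted p = 0.00554), and the other 6 measured astrocyte markers did not pass. Of 10 pyramidal markers 5 were measured, and 2 passed for genotype in opposite directions. The CA1 marker Wfs1 stood at -1.04 (SE 0.14, limma adjusted p = 0.0082), and Bok at 0.69 (SE 0.11, limma adjusted p = 0.0198). The mean of the 5 ranged from 6.82 to 6.94 in control saline, 6.86 to 7.01 in control kainate, 6.55 to 6.76 in mutant saline and 6.65 to 6.72 in mutant kainate arrays. Of 9 measured general neuronal markers, Map2 fell by 2.06 with averaged kainate (SE 0.33, limma adjusted p = 0.0167) and 8 did not pass. Markers of dentate granule neurons, thalamus and hypothalamus, cortex and amygdala, choroid plexus and oligodendrocytes gave 0 calls in the 7 comparisons. The part of these cells in the member values was not tested.

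For Scg2, Cck and Penk, the members with the smallest p in the averaged comparisons, the genes of most like pattern were sought among 4899 brighter genes by Pearson r of log2 values over 12 arrays, which share groups and replicate effects. Nearest to Scg2 were Tiparp (r = 0.97), Atf3 (0.95) and Gadd45b (0.94), all of them with higher values under kainate (1.73, 4.61 and 2.32 in controls, and 1.15, 2.82 and 0.86 in mutants). Nearest to Cck were Wdr61 (r = 0.93), Mrps17 (0.92) and Timm8b (0.92). Nearest to the brightest Penk probe set were Nit1 (r = 0.92), Pkp4 (0.89) and Wfs1 (0.87), whose mutant saline difference was -1.14. Among the members, Npy and Sst correlated at 0.65 over the 12 arrays and at 0.70 after group means were removed. These are descriptions over few arrays.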

How the data were processed

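Hippocampal RNA was hybridised to 12 Affymetrix mouse expression arrays. The authors deposited log2 values per probe set, made with GCRMA in R 2.4.1, per the submitters' processing notes. GCRMA subtracts background by probe sequence and normalises across arrays, so levels of different probe sets are not comparable. Its version, and the genome build behind the probes, are not given in the sources used here. Control probe sets (66) were left out. Symbols came from GEO's platform annotation (10833 probe sets with 1 symbol, 396 with several, 1193 with none), updated by Entrez identifier to RefSeq.

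The 12 arrays and 12422 probe sets entered 1 linear fit of the 4 group means with limma 3.58.1 in R 4.3.3 (8 residual and 2.48 prior degrees of freedom). It gave 7 two-sided contrasts, with Benjamini-Hochberg adjustment over all probe sets and a threshold of 0.05. The scripts were tested on simulated data. The number of arrays limits the precision, and SE and SD cover differences between pools.

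The 10 genes, the 4 pathway lists and the marker lists were chosen with earlier results of these data known. Every member is named. From each pathway list, genes that passed would be named, otherwise up to 3 with the smallest p in the averaged contrasts. Likeness was sought for the members with the smallest p in the averaged contrasts. The dim level of 4 and the counts of separated groups were chosen after seeing the data. Alternatives covered the replicate number, subsets of arrays, normalisation, filter, variance prior, averaging per gene, array weights and leaving out each array.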

Additional observations from a re-analysis of the deposited data

How the results depend on the processing

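Counts of member probe sets past the threshold depended on the settings. Kainate in controls had 1 call, and 0 with the replicate block, with replicate 1 as a batch term, with only replicates 2 and 3, with median centring, with only probe sets above the median level and with only the arrays compared. Leaving out each array gave 0 to 1. Kainate in mutants had 0 calls, 1 with only replicates 2 and 3, and 0 to 1 on leaving out each array. Averaged kainate had 1 call, 2 with only replicates 2 and 3, 0 with median centring, and 0 to 2 on leaving out each array. Genotype under saline and under kainate had 0 calls and 0 to 1 on leaving out each array. Averaged genotype had 0 calls and 0 to 1 on leaving out each array, and 1 (Penk) with the replicate block, the batch term, only replicates 2 and 3, only probe sets above the median level, and the intensity trend with robust prior. Apart from the subsets of arrays and the filter, which fit fewer arrays or probe sets, the cause was not tested.

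Array weights moved the counts most, and were run by 2 methods. The planned one, limma's default, stopped before converging, with weights from 0.0204 (control kainate replicate 3) to 75.2 (control saline replicate 2). It called 7 member probe sets for kainate in controls, 7 in mutants, 7 averaged, 10 for genotype under saline, 3 under kainate, 7 averaged and 4 for the interaction, and 8537 of all probe sets for genotype under saline, where the unweighted fit called 17. After this was seen, the gene-by-gene method was added (weights 0.0321 to 6.17, on the same arrays). It called 3, 4, 6, 5, 1, 3 and 0 member probe sets in the same order of comparisons. Neither weighted fit is used above.

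Replicate numbers were not shown to pair the arrays. Deviations from group means correlated at 0.368 to 0.848 among replicate 1 arrays, at 0.302 to 0.583 among replicate 2 and at -0.011 to 0.621 among replicate 3. With the replicate block, Scg2 in controls had a limma adjusted p of 0.0527 and the averaged Penk genotype difference one of 0.0158.

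Over all settings, weighted ones included, Scg2 passed in 6 of 23 for kainate in controls and in 17 of 22 averaged, and the brightest Penk probe set passed in 8 of 22 for averaged genotype. Each kept its sign in all of them. Averaged Scg2 was also lost with only replicates 2 and 3 (limma adjusted p = 0.0527). Dim probe sets limit what can be said of Pdyn, the dimmest Penk probe set and most receptors. The share of promoters with the full element was 1.79%, and 1.55% counting only bases before the start.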
